A study of Mus musculus with 4 samples.

Results

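The 9 transcription factor genes described here, Foxp3, Ikzf2, Tcf7, Satb1, Gata3, Prdm1, Tbx21, Eomes and Tox, specify and maintain the lineages of T cells and natural killer (NK) cells. They were taken by gene symbol, 9 of 55450 genes in the count matrix, and read in cells gated as T or NK cells with receptor genes, none of which is a member. The gates left 1172 T and NK cells of 32133 cells that passed the filters (3.65%, exact 95% interval 3.45 to 3.86). The cells came from tumours of 4T1, a mouse mammary carcinoma line, grown from 1000000 cells in the right flank of female BALB/c mice aged 6 to 8 weeks. Tumours were collected on day 13 and CD45+ cells (CD45, the product of Ptprc, marks blood-derived cells) were sorted and run on the 10x Genomics 3′ single-cell platform. All mice received NIR light (980 nm, 1.0 W per square centimetre, 5 minutes) on days 8, 9 and 10 after an intravenous injection on day 7. The injection was PBS for 2 samples and TIOs for 1, the latter group being TIOs+NIR3, where TIOs are light-triggered oncolytic particles made from engineered, frozen macrophages. The remaining sample is titled PBS, its protocol names TIOs, and it was assigned to no group. The sources used here do not say how many mice went into each sample.

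The matrix joins 4 libraries, told apart by a barcode suffix and called libraries 1 to 4 here. No source links a suffix to a sample, so treatments were not compared, and each library stands for a sample of unknown treatment. With 4 libraries the smallest two-sided exact p for a difference in 1 direction would be 0.125, and no p-value is given. Levels are UMIs (unique molecular identifiers, 1 for each captured transcript molecule) summed over the cells of a class in a library, per 1000000 UMIs of those cells (CPM), with exact Poisson 95% intervals. Shares of cells carry exact (Clopper-Pearson) 95% intervals, except that beside a count of 0 the share that 3 cells of the total would make is given as the limit. Both kinds of interval, and those of folds, cover counting error and not the spread between mice. Because 3′ tags differ in capture between genes, CPM values are compared between cells and not between genes.

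T cells develop along branches that a few factors hold apart. Foxp3 maintains regulatory T cells, and Ikzf2 (Helios) stabilises them. Tcf7 (TCF-1) keeps naive and stem-like T cells, Satb1 organises chromatin in developing and resting lymphocytes, and Gata3 is needed for CD4 T cells and drives the type 2 helper programme. Prdm1 (Blimp-1) accompanies terminal effector states, the T-box factors Tbx21 (T-bet) and Eomes drive type 1 and cytotoxic programmes and NK maturation, and Tox accompanies chronic stimulation of CD8 T cells.

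The libraries held 69255999 to 108646352 UMIs and gave 322, 93, 498 and 259 gated T and NK cells, with median depths of 3253.5 to 5711 UMIs per cell. Ptprc was detected in 1046 of these cells (89.2%). Another 790 cells (40.3% of those passing a T or NK gate) also passed the gate of another lineage and were removed; their median depth was 12226.5 to 39897.5 UMIs by library. Of 101 barcode sequences shared between libraries, 7 belonged to a gated T or NK cell. The make-up differed between libraries. CD8 T cells (Cd8a or Cd8b1, no Cd4) numbered 151 in library 1 and 4, 14 and 5 in libraries 2 to 4. CD4 T cells (Cd4, no Cd8a or Cd8b1) numbered 32, 48, 219 and 82, and NK cells 27, 5, 16 and 65. A further 417 T cells had a UMI of none of the 3 coreceptor genes. In library 1, 2890 cells passed the gate for tumour and epithelial cells against 0 to 87 in the others. There the summed level of its 6 genes in the 5 lymphocyte classes was 332 to 711 CPM, and in libraries 2 to 4 it was 0 to 71.2 CPM. Marker lists of other lineages were also present: fibroblast genes at 0 to 39.4 CPM in library 1 and 112 to 346 CPM in libraries 2 to 4, and monocyte and macrophage genes at 209 to 386 CPM and 19.1 to 372 CPM. The part of RNA from these cells in the values was not tested.

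**Figure D1:**
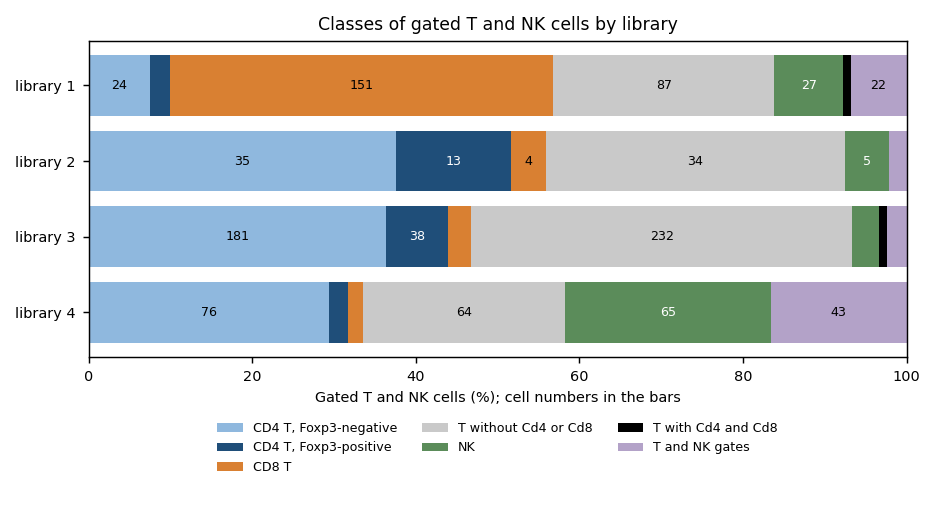
Horizontal bars give the percentage of gated T and NK cells in each class, 1 bar for each library, with cell numbers printed in the wider segments. CD8 T cells fill 151 of 322 cells in library 1 and few cells elsewhere, and NK cells are most frequent in library 4.

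Several of the factors were not confined to lymphocytes. Of 544 Foxp3 UMIs in all kept cells, 72.8% lay in gated T and NK cells, the highest share of the 9. The share was 52.6% for Satb1, 51.9% for Tbx21, 50.7% for Tox, 47.8% for Eomes, 45.6% for Tcf7 and 35.5% for Ikzf2. It was 10.3% for Gata3 and 5.83% for Prdm1. The remaining UMIs are not all from other lineages. They include those of the 790 T or NK cells removed for another gate. They also include those of 5755 cells in several other gates and 4091 cells in no gate. For Tbx21, each gated class of another lineage held at most 8 of the 318 UMIs. Gata3, also a luminal mammary factor, had 5538 of its 12219 UMIs in tumour and epithelial cells, where 71.0% of 2978 cells held a UMI at 106 CPM. Prdm1, which also acts in myeloid cells, had 1568 of 4425 UMIs in monocytes and macrophages, with a UMI in 15.3% of 7101 cells. Satb1 was detected in 60.6% of 94 plasmacytoid dendritic cells and 66.7% of 24 B cells. Tcf7 was detected in 15.3% of 216 conventional dendritic cells. Neutrophils, at a median depth of 1840 UMIs, were used to read the background from free RNA for the factors they should lack. Over 7695 neutrophils the share with a UMI was 0.03% for Foxp3, Tbx21, Eomes and Tox, 0.10% for Ikzf2, 0.16% for Tcf7 and 0.23% for Gata3. It was 1.98% for Prdm1 and 3.76% for Satb1, which are given as levels in neutrophils and not as background, since neutrophils may express both. For Gata3 the neutrophil share differed by library. It was 1.58% (7 of 444 cells, 8.12 CPM) in library 1, which held 2890 of the 2978 tumour and epithelial cells. In libraries 2 to 4 it was 0.11% to 0.22%.

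**Figure D2:**
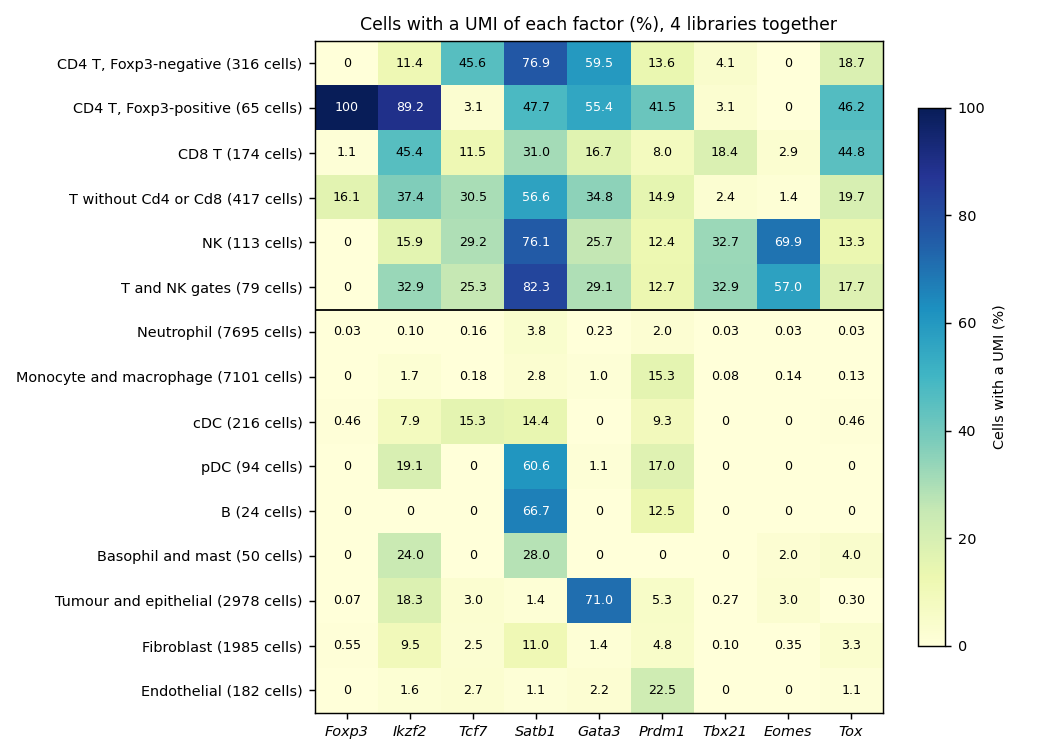
Each tile gives the percentage of cells with at least 1 UMI of a factor (columns) in a gated class (rows, cell numbers in brackets), over the 4 libraries together; Foxp3 defined the CD4 classes. Eomes stands out in NK cells (69.9%), Ikzf2 in Foxp3-positive CD4 T cells (89.2%) and Gata3 in tumour and epithelial cells (71.0%).

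Foxp3 (ENSMUSG00000039521, chrX:7573644-7595245, plus strand, GRCm38) marked 8 of 32, 13 of 48, 38 of 219 and 6 of 82 CD4 T cells in libraries 1 to 4. These shares are 25.0% (11.5 to 43.4), 27.1% (15.3 to 41.8), 17.4% (12.6 to 23.0) and 7.32% (2.73 to 15.2). Library 4 was the lowest. Its interval overlapped those of libraries 1 and 3 and stopped just short of that of library 2, and the intervals of libraries 1, 2 and 3 overlapped one another. A cell with no Foxp3 UMI may still express the gene, so these shares are of cells with a UMI. The median depth of CD4 T cells was 2685.5, 6034.5, 3941.0 and 5263.0 UMIs in libraries 1 to 4. After 1 random thinning of each cell to 1000 UMIs the shares were 21.9%, 6.25%, 10.6% and 3.66%, resting on 7, 3, 23 and 3 cells with Foxp3, so that library 2 was no longer the highest. Of the 417 T cells without Cd4 or Cd8, 67 had Foxp3 (16.1%), and 12.5% to 20.6% did in the single libraries. A single cell of these 67 also had a UMI of Trdc or a gamma-delta constant gene (Tcrg-C1, Tcrg-C2, Tcrg-C4). Foxp3 was found in 2 of 174 CD8 T cells and in 0 of 113 NK cells, which allows a share of up to 2.65%. In the Foxp3-positive CD4 T cells its level was 609.2, 236, 609.9 and 595 CPM in libraries 1 to 4. Library 2, whose Foxp3-positive cells were the deepest with a median of 9771 UMIs, was the lowest. These cells were selected for a Foxp3 UMI, so the level is in part set by the selection and by depth. It is not read as a difference between libraries.

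The 250 bases before the most upstream Foxp3 start listed by RefSeq (GRCm38.p6, chrX:7579426-7579675, plus strand) are shown because Foxp3 sets the main division among these cells. The window lies inside the longer GENCODE gene span. Capitals mark the match to the forkhead core TAAACA, searched on both strands.
Foxp3: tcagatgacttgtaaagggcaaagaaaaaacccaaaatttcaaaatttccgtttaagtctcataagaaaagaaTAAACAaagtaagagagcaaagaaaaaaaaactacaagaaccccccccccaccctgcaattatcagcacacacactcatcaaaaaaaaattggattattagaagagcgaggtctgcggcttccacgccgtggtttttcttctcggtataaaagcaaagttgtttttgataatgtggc
The window had 1 such match and 37.6% G or C. The same core lay in 12.0% of the 32851 windows of this length, and Prdm1 was the only other of the 7 members in the table with a match. None of the 7 windows held the T-box core AGGTGT, the GATA motif AGATAA or the TCF core CTTTGA, which 11.8%, 9.99% and 13.8% of all windows held. A match describes letters, and no match says only that these letters are not in the window.

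Ikzf2 (chr1:69531214-69687245, minus strand), a zinc finger factor of the Ikaros family, had the largest folds in favour of Foxp3-positive CD4 T cells among the members other than Foxp3. In Foxp3-positive CD4 T cells it stood at 948, 963, 1539 and 1487 CPM in libraries 1 to 4, and in Foxp3-negative CD4 T cells at 344, 45.2, 35.7 and 23.4 CPM. The classes did not overlap. The fold was 2.75 (95% interval 1.55 to 4.92) in library 1, 21.3 (12.1 to 41.0) in library 2, 43.1 (29.6 to 65.0) in library 3 and 63.6 (31.3 to 143) in library 4. Library 1 stood apart through its Foxp3-negative cells, of which 6 of 24 had Ikzf2. Taking all 980 T cells, Ikzf2 was detected in 128 of 138 cells with Foxp3 (92.8%, 87.1 to 96.5) and in 24.6% (21.7 to 27.6) of those without. Over the 4 libraries together the median depths were close, 3756 and 3503.5 UMIs. Thinning each cell to 1000 UMIs and calling both genes again gave 71.6% and 16%. In library 2 the cells with Foxp3 were deeper, with medians of 9960.5 and 4844 UMIs. Its thinned shares were 40.0%, of 5 cells, and 25.0%. Before thinning, the share without Foxp3 was 44.8% in library 1 and 14.6% to 24.2% in libraries 2 to 4. T cells without Cd4 or Cd8, which were not split by Foxp3, were next in level, at 347 to 643 CPM over the libraries. Of these 417 cells, 67 had a Foxp3 UMI, and the part of the Ikzf2 level from them was not tested. CD8 T cells were at 77.6 to 244 CPM and overlapped Foxp3-negative CD4 T cells, which in library 1 stood higher than CD8 T cells, at 344 against 244 CPM. NK cells were at 21.6 to 91.7 CPM and overlapped both CD8 T cells and Foxp3-negative CD4 T cells.

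Tcf7 (chr11:52252371-52283014, minus strand), the factor of naive and stem-like T cells, went the other way. Foxp3-positive CD4 T cells held 0, 1, 1 and 0 Tcf7 UMIs in libraries 1 to 4, and Foxp3-negative CD4 T cells held 11, 28, 199 and 72. In the Foxp3-negative cells this was 152, 97.3, 237 and 168 CPM. In library 3, the only library with 20 or more cells of both classes, the level was 49.7-fold lower in Foxp3-positive cells (8.82 to 1972). In library 2 it was 15.6-fold lower (2.59 to 640). In libraries 1 and 4 the counts of 0 allow only a bound, at 3 UMIs 1.49-fold and 1.51-fold lower. These bounds leave out counting error in the Foxp3-negative cells. Over all T cells, Tcf7 was detected in 2 of 138 cells with Foxp3 (1.45%, 0.176 to 5.14) and in 34.8% (31.6 to 38.1) of those without. Without Foxp3 the share was 10.9% in library 1, 31.8% in library 2, 47.6% in library 3 and 43.1% in library 4. In each library it exceeded the share in cells with Foxp3, with overlapping intervals in libraries 1 and 2. After thinning it was 14.3% without Foxp3 and 0% with it, over 74 thinned cells with Foxp3.

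Satb1 (chr17:51736187-51833290, minus strand), a chromatin organiser, was lower in Foxp3-positive CD4 T cells of 3 libraries. The levels were 169, 423, 148 and 260.1 CPM in libraries 1 to 4 against 262, 396, 1189 and 719 CPM in Foxp3-negative cells. Foxp3-positive cells were 8.05-fold lower (5.63 to 11.9) in library 3 and 2.77-fold lower (1.33 to 6.94) in library 4. In library 1 the fold of 1.55 had an interval across 1 (0.559 to 5.30), and in library 2 Foxp3-positive cells were 1.07-fold higher (0.779 to 1.45). Between libraries, Foxp3-negative CD4 T cells ranged from 262 CPM in library 1 to 1189 CPM in library 3, and Satb1 was detected in 27.8% of the T cells without Foxp3 in library 1 against 57.6% to 76.6% in libraries 2 to 4.

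Gata3, Prdm1 and Tox completed the pattern in CD4 T cells. Gata3 (chr2:9857078-9890034, minus strand), the type 2 helper factor, stood at 169, 224, 205 and 557 CPM in Foxp3-positive and at 276, 372, 409 and 491 CPM in Foxp3-negative cells of libraries 1 to 4. The classes overlapped. Gata3 was 2.0-fold lower (1.45 to 2.81) in Foxp3-positive cells of library 3 and 1.66-fold lower (1.13 to 2.5) in library 2, and the intervals of libraries 1 and 4 held 1.
Prdm1 (chr10:44437177-44528501, minus strand), a repressor linked to effector differentiation, stood at 67.7, 149, 129 and 334 CPM in Foxp3-positive and at 27.6, 27.8, 30.9 and 42.0 CPM in Foxp3-negative cells. All 4 libraries had the higher value in Foxp3-positive cells, without overlap. The folds were 5.37 (2.33 to 13.8) in library 2, 4.16 (2.34 to 7.42) in library 3 and 7.96 (3.15 to 18.6) in library 4, while library 1 had 2 UMIs in each class.
Tox (chr4:6686353-6991557, minus strand), an HMG-box factor, stood at 102, 99.4, 172 and 74.3 CPM against 55.1, 41.7, 52.4 and 32.7 CPM. Foxp3-positive cells were again higher in every library, by 3.28-fold (2.05 to 5.21) in library 3 and 2.39-fold (1.06 to 5.53) in library 2, with intervals across 1 in libraries 1 and 4. Over all T cells, Tox was detected in 48.6% of cells with Foxp3 and 22.1% of those without; in library 1 the shares were 32.0% and 36.3%, with overlapping intervals.

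**Figure D3:**
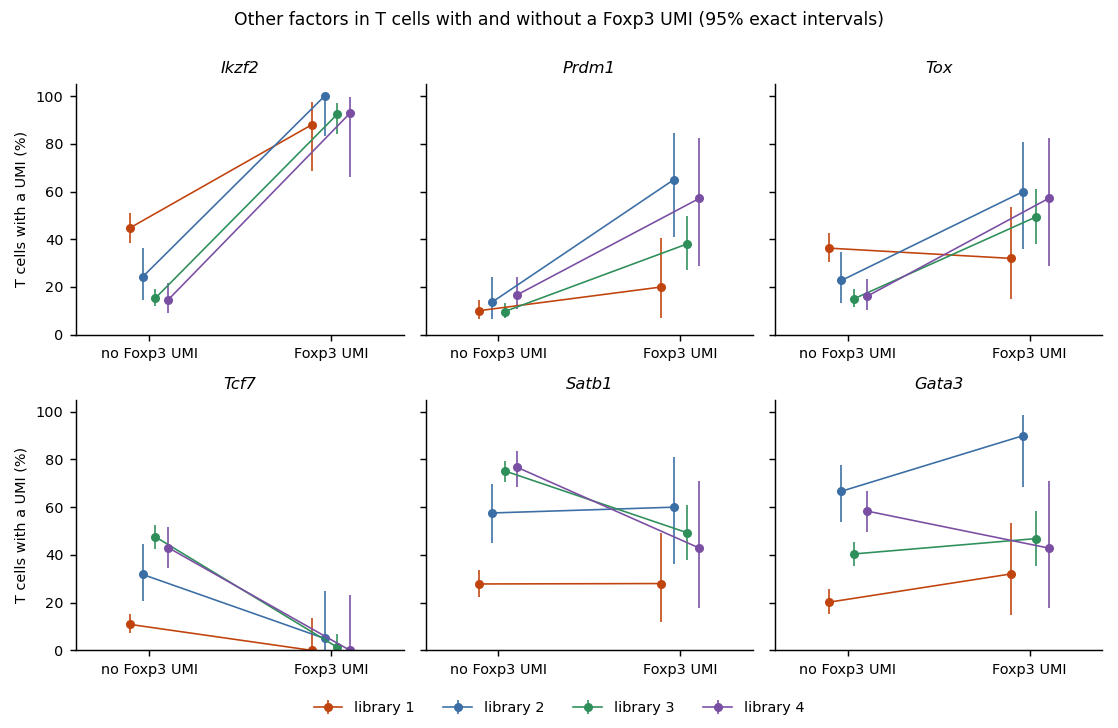
Each panel gives the percentage of T cells with a UMI of another factor, for cells without (left) and with (right) a Foxp3 UMI, 1 line for each library with exact 95% intervals. Ikzf2 is detected in 88.0% to 100% of Foxp3-positive cells of the 4 libraries, Tcf7 in 0% to 5.00%, and Gata3 goes in both directions.

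Read against all genes, few differed at least 2-fold in the same direction in every library. Of 8462 genes with at least 50 UMIs over the gated T and NK cells, 67 (0.792%) differed at least 2-fold in the same direction in all 4 libraries between Foxp3-positive and Foxp3-negative CD4 T cells, after adding 10 CPM to both levels; the differences below are log2 values on that scale, medians over the libraries. This count used a minimum of 5 cells per class, a setting chosen after seeing the data. The Foxp3-positive classes held 8, 13, 38 and 6 cells in libraries 1 to 4. In the 8 cells of library 1 a single UMI made 33.8 CPM, so calls can rest on few UMIs. All 9 members were among the genes tested. Foxp3, which set the classes, Ikzf2 and Prdm1 were higher and Tcf7 was lower. Prdm1 only just passed in library 1, from 2 UMIs in each class, 67.7 against 27.6 CPM. Tcf7 passed in libraries 1 and 4 from 0 UMIs in Foxp3-positive cells, where the bounds given above are under 2-fold. The median log2 difference over the members was 0.00 and over all tested genes −0.08. The members' median counts Foxp3, which set the classes, and Eomes, which had 0 UMIs in both classes. It is not read as a result. Of 25 other lineage factors tested, Ikzf4 (Eos), a partner of Foxp3, was higher, with a log2 difference of 2.66, and Bach2, a repressor of effector genes, lower (−1.37). Of 15 regulatory T cell genes, Itgae (2.47), an integrin of tissue-resident cells, and Areg (2.59), a tissue-repair growth factor, were higher and 0 were lower. Ctla4 and Il2ra, a regulatory receptor and the high-affinity interleukin-2 receptor chain, were higher in every library but missed 2-fold in library 1, with median differences of 2.09 and 2.48. Of 14 effector genes, Gzmb, encoding granzyme B, was higher (2.80) and Cxcr6 lower (−2.87). Of 8 naive and stem-like genes, Bach2 alone passed, as the list shares it with the factors. Of 6 type 2 genes, Areg, also in the regulatory list, was higher and Il13, a type 2 cytokine, was lower (−3.66). None of 5 inhibitory receptor genes passed in either direction.

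Eomes and Tbx21, related T-box factors, separated NK cells from T cells to different degrees. Eomes (chr9:118478212-118486132, plus strand) stood at 113, 195, 384 and 421 CPM in NK cells of libraries 1 to 4 and at 10.3, 0, 2.05 and 1.43 CPM in T cells. NK cells were far higher in every library. The fold was 11.0 (4.79 to 26.2) in library 1 and 187 (67.5 to 721) in library 3. In library 2 T cells had 0 UMIs, and at 3 UMIs the fold would be 47.2. That bound leaves out counting error in the 5 NK cells. The fold was 295 (52.0 to 11766) in library 4, with 1 UMI in T cells. Eomes was detected in 79 of 113 NK cells (69.9%) and in 0 of 381 CD4 T cells, which allows a share of up to 0.787%. No cell with Foxp3 held an Eomes UMI among 138 T cells, which allows up to 2.17%. CD8 T cells held it at 10.1 CPM in library 1, in 5 of 151 cells, and at 0 in the 4, 14 and 5 CD8 T cells of the other libraries.

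Tbx21 (chr11:97098071-97115331, minus strand) stood at 49.4, 86.5, 49.2 and 115 CPM in NK cells. In T cells it was 51.4, 0, 7.18 and 11.4 CPM. NK cells were 10.1-fold higher (4.56 to 25.4) in library 4 and 6.85-fold higher (1.93 to 20.1) in library 3. In library 1 the classes did not differ beyond counting error, with NK cells at 0.962 of the T cell level (0.369 to 2.12). Of the 55 Tbx21 UMIs in T cells of library 1, 45 lay in CD8 T cells, at 64.9 CPM. The NK level there was 0.761 of the CD8 level (0.290 to 1.70). CD4 T cells held Tbx21 at 0 to 29.4 CPM by library. Within NK cells, 79 held Eomes, 37 held Tbx21 and 23 held both. Tbx21 was detected in 29.1% (19.4 to 40.4) of NK cells with Eomes and in 41.2% (24.6 to 59.3) of those without, and the intervals overlapped. After thinning the shares were 18.5% and 10.5%, in the opposite order. The 79 cells passing both the T and the NK gates, kept apart, had Eomes in 57.0% and Tbx21 in 32.9% of cells, where NK cells had them in 69.9% and 32.7%. For Eomes the libraries differed. It was in 22.7% (7.82 to 45.4) of 22 such cells in library 1 and 67.4% (51.5 to 80.9) of 43 in library 4. NK cells of these libraries had it in 51.9% and 73.8%.

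The 250 bases before the Tbx21 start (chr11:97115332-97115581, minus strand) and the Eomes start (chr9:118477939-118478188, plus strand), from RefSeq on GRCm38.p6, are given as those of the related T-box genes. They are in lower case throughout, since no searched motif was found.
Tbx21: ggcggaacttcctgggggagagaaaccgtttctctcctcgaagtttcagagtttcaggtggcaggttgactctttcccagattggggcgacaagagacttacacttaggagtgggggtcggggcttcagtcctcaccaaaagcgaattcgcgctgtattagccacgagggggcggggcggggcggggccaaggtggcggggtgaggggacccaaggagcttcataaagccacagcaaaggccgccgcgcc
Eomes: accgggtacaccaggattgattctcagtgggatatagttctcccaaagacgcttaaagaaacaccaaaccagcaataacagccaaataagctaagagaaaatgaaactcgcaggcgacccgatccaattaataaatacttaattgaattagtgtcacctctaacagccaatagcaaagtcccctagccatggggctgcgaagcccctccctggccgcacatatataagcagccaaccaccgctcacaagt
The Tbx21 window had 60.8% G or C and the Eomes window 46.4%.

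Members other than Foxp3, Eomes and Tbx21 differed between NK and T cells to varied extents. Ikzf2 was lower in NK cells of all 4 libraries, 91.7, 21.6, 29.5 and 43.2 CPM against 375, 400.1, 383 and 190 CPM in T cells, 4.09-fold (2.37 to 7.75) in library 1 and 4.39-fold (2.43 to 8.71) in library 4. These T cells include those with Foxp3, in which Ikzf2 was high. Foxp3-negative CD4 T cells alone stood at 344, 45.2, 35.7 and 23.4 CPM, close to NK cells in library 3 and below them in library 4. Gata3 was lower in NK cells than in all T cells of each library, 49.4, 86.5, 98.4 and 79.2 CPM against 89.7, 313, 289 and 420.4 CPM, with an interval across 1 in library 1. Satb1 did not differ beyond counting error in any library: 141, 411, 748 and 594 CPM in NK cells against 118, 378, 905 and 641 CPM. Tcf7 was 1.80-fold higher (0.805 to 3.64) in NK cells of library 1 and 1.70-fold lower (1.11 to 2.69) in library 4, and 2.03-fold lower (1.06 to 4.47) in library 3. It was also lower in library 2, 21.6 against 60.5 CPM, and the intervals of libraries 1 and 2 held 1. Tox was lower in NK cells of every library, 7.06, 21.6, 39.3 and 43.2 CPM against 145, 72.9, 70.7 and 49.9 CPM. In library 1 this was 20.5-fold, from 1 UMI in NK cells (3.63 to 815), and in libraries 2 to 4 the intervals held 1. Prdm1 was at 0 UMIs in the 27 NK cells of library 1 and 21.6 to 49.2 CPM elsewhere.

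Libraries 1 and 4 had 20 or more NK and T cells. Of the 8462 genes, 299 (3.53%) differed at least 2-fold the same way in both, and of the members Eomes was higher and Foxp3 and Ikzf2 were lower in NK cells. The T cells here include those with Foxp3. Against Foxp3-negative CD4 T cells alone, Ikzf2 was not lower in NK cells of library 4, 43.2 against 23.4 CPM. The members' median log2 difference was −1.41, against −0.04 over all tested genes. Of 14 effector genes, 5 were higher, among them Gzma (log2 difference 4.92) and Prf1 (3.31), which encode cytotoxic granule proteins, and Cxcr6 was lower (−3.96). Of 25 other lineage factors, 5 were lower and 0 higher: Bcl11b (−4.18), a T cell commitment factor, Irf4 (−2.99), Maf (−2.07), Rora (−2.05) and Batf (−1.28). Of 15 regulatory T cell genes 7 were lower, of 6 type 2 genes 3 were lower, and of 5 inhibitory receptor genes Pdcd1 was lower. Of 8 naive and stem-like genes 1 was higher and 1, Il7r, the interleukin-7 receptor, was lower (−3.36). Trdc was detected in 61 of 113 NK cells (54.0%) and in 67 of 417 T cells without Cd4 or Cd8 (16.1%).

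At the minimum of 20 cells of both classes, CD8 T cells could be compared in library 1 alone. There 151 stood beside 24 Foxp3-negative CD4 T cells. Tox was at 172 CPM, 3.12-fold higher (1.19 to 11.6), and was detected in 75 of the 151 cells (49.7%). Tcf7 was 8.75-fold lower (3.50 to 21.7) at 17.3 CPM, Gata3 5.46-fold lower (2.98 to 9.72) at 50.5 CPM, and Satb1 3.13-fold lower (1.76 to 5.33) at 83.7 CPM. For Tbx21 (2.36-fold, 0.615 to 20.1), Ikzf2 and Prdm1 the intervals held 1, and Eomes had 7 UMIs against 0, too few for a fold. The few CD8 T cells of the other libraries held Tcf7 at higher levels than those of library 1: 77.6 CPM (9.39 to 280.2) in 4 cells of library 2, 426 CPM (248 to 682) in 14 cells of library 3 and 249 CPM (67.9 to 638) in 5 cells of library 4. Their Foxp3-negative CD4 T cells stood at 97.3, 237 and 168 CPM. The interval of library 2 reached the level of library 1, and those of libraries 2 and 4 held the CD4 level of their own library. Satb1 in those 14 cells was 1452 CPM, above its level in CD8 T cells of library 1. Tox was 50.1 CPM (6.06 to 181) from 2 UMIs, and its interval held the library 1 level. In Foxp3-negative CD4 T cells of library 3, Satb1 stood at 1189 CPM and Tox at 52.3 CPM. In library 3, then, Tcf7 and Satb1 were not lower in CD8 T cells. The Tox interval there held the CD4 level too, so 2 UMIs cannot show whether Tox was higher. Gata3 in CD8 T cells of library 3 was lower, 50.1 against 409 CPM, from 2 UMIs. In library 4 Gata3 was also lower, 125 against 491 CPM, again from 2 UMIs. In library 2 it was higher, 620 against 372 CPM, with all 16 UMIs in 1 of 4 cells. Satb1 in CD8 T cells was lower in library 4, 187 against 719 CPM, and higher in library 2, 698 against 396 CPM. Within library 1, Tcf7 was detected in 5.33% of CD8 T cells with Tox and 5.26% of those without. A constant gene of the gamma-delta receptor was detected in 53 of the 151 CD8 T cells, with Trdc in 1 of them, and in 0 CD8 T cells of libraries 2 to 4.

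In this single library 2263 of the 8462 genes (26.7%) differed at least 2-fold between CD8 T and Foxp3-negative CD4 T cells, and 5 of the 9 members did: Eomes and Tox higher, Gata3, Tcf7 and Satb1 lower. Eomes, from 7 UMIs against 0, lay just inside the limit (log2 difference 1.01), which it missed under several alternatives, among them at 0.27 with 50 CPM added and at 0.73 with the cells of another gate kept, and Tbx21 just outside it, and the 26.7% of all genes rests on the 24 CD4 T cells of 1 library. All 5 tested inhibitory receptor genes were higher in CD8 T cells, led by Lag3 (log2 difference 4.67) and Pdcd1 (3.20), and their median was 2.79 against 0.04 over all tested genes. Of 14 effector genes 10 were higher, with Prf1 (5.22) the largest, and 1 lower. Of 8 naive and stem-like genes 7 were lower, among them Slamf6 (−3.41) and Lef1 (−3.22), which mark the stem-like state. Of 15 regulatory T cell genes 9 were lower, of 25 other factors 9 were lower and 4 higher, and of 6 type 2 genes 3 were lower. Between NK and CD8 T cells of library 1, 1271 genes (15.0%) passed 2-fold and again 5 members did. Eomes was 11.2-fold (4.35 to 32.1) and Tcf7 4.08-fold (1.58 to 10.3) higher in NK cells. Tox was 24.3-fold lower (4.28 to 969), from 1 UMI in NK cells, and Ikzf2 2.66-fold lower (1.51 to 5.09). Prdm1 had 0 UMIs in NK cells, which at 3 UMIs would be 1.29-fold lower. That bound leaves out counting error in the CD8 T cells, so a difference is not established. The pass of Prdm1 at 2-fold rests on its 0 UMIs in NK cells, taken as 0 CPM, and its bound is under 2-fold. In that comparison 5 effector genes were higher and 4 lower, 4 of 5 inhibitory receptor genes were lower, and of the naive and stem-like genes 2 were higher and 2 lower. The same 27 NK cells enter both comparisons with NK cells, and the same CD8 T cells enter both with CD8 T cells.

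**Figure D4:**
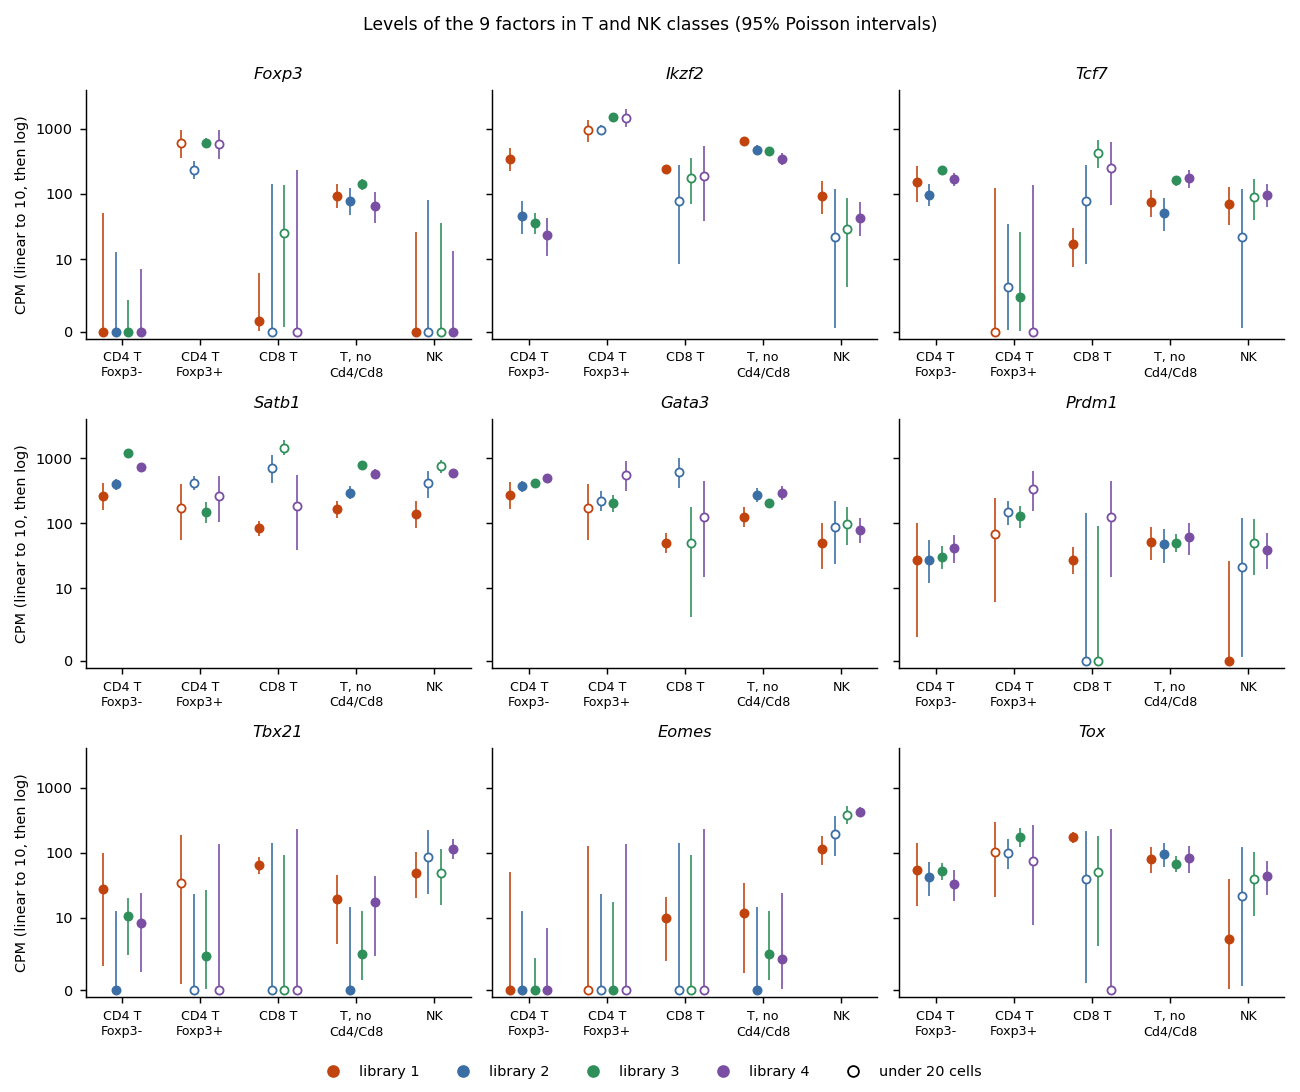
Each panel shows 1 factor, with its level in CPM (linear to 10, then logarithmic) in 5 classes of T and NK cells; points are the 4 libraries with exact Poisson 95% intervals and open points rest on under 20 cells. Eomes is at 113 to 421 CPM in NK cells and at most 11.8 CPM in the T cell classes, and Tcf7 and Satb1 in CD8 T cells are lowest in library 1.

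Across the 5 classes the levels of most factors overlapped between neighbours. Tcf7 stood at 97.3 to 237 CPM in Foxp3-negative CD4 T cells, 51.4 to 173 CPM in T cells without Cd4 or Cd8, 21.6 to 97.1 CPM in NK cells and 17.3 to 426 CPM in CD8 T cells, all overlapping except the first with NK cells. Foxp3-positive cells were at 6.22 and 4.76 CPM in libraries 2 and 3, from 1 UMI each. In libraries 1 and 4 they were at 0 UMIs, which at 3 UMIs would be 102 and 111 CPM, so that only a level below the Foxp3-negative CD4 T cells of the same library is shown there. For Satb1 every pair of these classes overlapped, with ranges of 262 to 1189, 148 to 423, 83.7 to 1452, 166 to 785 and 141 to 748 CPM in Foxp3-negative CD4, Foxp3-positive CD4, CD8, coreceptor-negative T and NK cells. Prdm1 in Foxp3-positive CD4 T cells, at 67.7 to 334 CPM, overlapped CD8 T cells alone (0 to 125 CPM). The Eomes values of NK cells lay above those of every T cell class, but classes at 0 UMIs in 4 to 8 cells have upper limits of 125 to 229.7 CPM, which reach the NK level of library 1. Tox in NK cells (7.06 to 43.2 CPM) lay below Foxp3-positive CD4 T cells (74.3 to 172 CPM) and below T cells without Cd4 or Cd8 (67.7 to 95 CPM).

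Over the 14 combinations of class and library with 20 or more cells, correlations describe which members went together; the units share libraries and depth. The CD4 classes were split by Foxp3 itself, so the correlations of Foxp3 and the genes most like it are in part set by the classes. Foxp3-positive CD4 T cells entered from library 3 alone and CD8 T cells from library 1 alone. Cells of both gates entered from libraries 1 and 4. The correlations of Foxp3, Tox and others may therefore hang on a single unit, which was not tested. Tbx21 went with Eomes (Pearson r of log2 CPM 0.82), Foxp3 with Ikzf2 (0.80) and Tcf7 with Satb1 (0.77), and Gata3 went against Tbx21 (−0.81) and Eomes (−0.79). Among 6326 genes with at least 100 UMIs, the 3 most like each member are named here with the r of the first. They were Igkc, Sdc4 and Fam129a for Foxp3 (0.92), Sdc4, Cebpb and Slc5a3 for Ikzf2 (0.88), and Il6ra, Trat1 and Furin for Gata3 (0.94). They were C230085N15Rik, Irf2bp2 and Gm37248 for Tcf7 (0.88), 5830444F18Rik, Tle3 and Top2b for Satb1 (0.91), and H3f3a, H13 and Eif2ak1 for Prdm1 (0.92). For Tox they were Pdcd1, Uhrf2 and 2010111I01Rik (0.86), and for Tbx21 AW112010, Tex9 and Fasl (0.96). For Eomes they were Klra13-ps, Klra7 and Serpinb9b (0.98), and Klra7 is a gene of the NK gate.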

How the data were processed

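The deposited matrix holds UMI counts per gene and cell, made by the authors with Cell Ranger on mm10. The submitters' processing notes name version 2.1.1, the extract protocol 3.0.2 and the file header 6.1.2, so the version is unresolved. All 55450 gene IDs match GENCODE vM21. The 4 libraries were told apart by barcode suffix. Of 33064 barcodes and 355765099 UMIs, 32133 cells with 300 or more genes and at most 15% mitochondrial UMIs were kept. The labels state 15603 cells after the study's filters. The paper gives the same limits for genes and mitochondrial transcripts. It shows its cells for PBS and TIOs+NIR3 only, while the matrix joins 4 libraries, and the gap in cell number was not examined.

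T cells needed 2 of Cd3d, Cd3e, Cd3g, Trac, Trbc1 and Trbc2, and NK cells 2 of Ncr1, Klrb1c, Klre1, Klra4, Klra7 and Klri2. Other lineages needed 3 of their genes, and T or NK cells that also passed one were removed. No doublet caller was run. Levels were CPM with exact Poisson intervals, folds had conditional exact binomial intervals, and cells were thinned to 1000 UMIs where depth could differ. A fold against 0 UMIs was bounded by 3 UMIs over the class in that library, which leaves out counting error in the other class. A gene was counted as differing when it passed 2-fold on log2 of CPM plus 10, with at least 50 UMIs over the gated cells; no test was run. Genes named are the 9 members, genes of 6 lists and the 3 most correlated genes per member. The members and lists were chosen with earlier results of these data known. Python 3.11.15, numpy 2.4.6, scipy 1.17.1 and pandas 2.3.3 were used, and the scripts were tested on simulated data. A gene of the naive and stem-like list is not reported here by name.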

Additional observations from a re-analysis of the deposited data

How the results depend on the processing

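Classes were compared inside each library. No comparison of treatments was possible because no source links the libraries to samples or groups. Values below are log2 differences of CPM plus 10 unless another unit is named, the cause of a shift was not tested, and 3 settings (5 or more cells per class, T cells without Cd8 in place of CD4 T, cells of both gates counted as NK) were chosen after seeing the data. Keeping cells that passed another lineage's gate gave 1962 T and NK cells against 1172, and leaving out 1 library gave 674 to 1079. That setting moved NK against T to 1.03 for Tcf7 (0.00 as reported), 1.33 for Satb1 (0.07) and −0.61 for Gata3 (−1.51). It moved Foxp3-positive against Foxp3-negative CD4 T to −1.66 for Satb1 (−2.93) and −0.24 for Gata3 (−0.96). For NK against T, Tcf7 was −1.03 with 3 gate genes, −0.95 with 1 gate gene and −1.09 with cells passing both gates counted as NK, and Satb1 was −0.45 with 3 gate genes. Leaving out library 1 or 4 in turn gave −0.71 to 0.71 for Tcf7, −0.11 to 0.24 for Satb1 and −2.27 to −0.75 for Gata3. Lowering the minimum to 5 cells gave Eomes 5.30 (2.61) and Tbx21 2.56 (−0.34) in NK against CD8 T, and Tox −0.053 (1.48) and Tbx21 −0.95 (1.00) in CD8 T against Foxp3-negative CD4 T. Eomes in that comparison (1.01) was 0.00 at 5 cells and ranged to 3.47 with 1 CPM added. It gave Ikzf2 4.61 (5.08) and Satb1 −1.02 in Foxp3-positive against Foxp3-negative CD4 T. Adding 50 CPM gave 1.44 for Eomes in NK against CD8 T, and 4.21 for Ikzf2, −2.39 for Tcf7 (−4.06) and 1.14 for Prdm1 (1.76) in the Foxp3 comparison. Summing the libraries gave 4.48 for Ikzf2 and −1.73 for Satb1, taking all T cells without Cd8 gave 3.54 and −0.25, and 1 gate gene gave 4.80 for Ikzf2. Thinning each cell to 1000 UMIs, in 1 random draw that leaves few UMIs per class, gave 1.00 for Eomes in NK against CD8 T, 0.66 for Satb1 in NK against T, and 4.62 for Tox in CD8 T against Foxp3-negative CD4 T. It gave −3.11 for Tcf7 and −2.23 for Satb1 in the Foxp3 comparison. The median Foxp3 share of CD4 T cells over libraries, 21.2%, was 8.45% after thinning and 17.4% to 25.0% with 1 library left out. Requiring 2 UMIs left no value for CD8 T against CD4 T and for the Foxp3 comparison, and NK against CD8 T gave none with 1 or 3 gate genes. At 20 cells per class, the comparisons with CD8 T cells could not be made without library 1, nor the Foxp3 comparison without library 3.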

Other observations

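Outside the gated lymphocytes, Satb1 was the member found most often in plasmacytoid dendritic cells, interferon-producing relatives of dendritic cells, at 60.6% of 94 cells with a median depth of 6082.5 UMIs. Ikzf2 was detected in 24.0% of basophils and mast cells. Prdm1 was detected in 22.5% of endothelial cells at 49.8 CPM, where it is known to act in vessel development. No explanation was examined for these values.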
